A study of Mus musculus with 12 samples.

Results

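The costimulatory and coinhibitory ligands of dendritic cells were followed through RNA-seq of mouse splenic type 2 conventional dendritic cells (cDC2). The set was fixed by gene name as Cd80, Cd86, Cd40, Cd274, Pdcd1lg2, Icosl, Vsir, Lgals9, Tnfsf4 and Tnfsf9, which are 10 of the 55322 genes in the deposited table, and all 10 were found there. Of these, 9 reached 1 FPKM, fragments per kilobase of gene length scaled to the assigned fragments, in all 12 libraries and were tested. Tnfsf4 reached it in none and was not tested.

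A T cell that recognises its peptide on a dendritic cell also reads other surface proteins of that cell, which help decide whether it divides, turns tolerant or stops. Cd80 and Cd86 engage Cd28 to activate and Ctla4 to restrain, Icosl engages Icos, and the TNF family ligands encoded by Tnfsf9 (4-1BBL) and Tnfsf4 (OX40L) prolong the response through Tnfrsf9 and Tnfrsf4. Cd40 is itself a receptor, through which a T cell's CD40 ligand licenses the dendritic cell. Cd274 (PD-L1) and Pdcd1lg2 (PD-L2) bind Pdcd1 and dampen the T cell, Vsir (VISTA) is a B7-related molecule that restrains T cells, and Lgals9 encodes galectin-9, a secreted sugar-binding protein known as a ligand of Havcr2 (TIM-3). Dendritic cells are known to raise many of these genes as they mature after sensing bacterial lipopolysaccharide (LPS).

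Every group had received 5 mg/kg LPS into the peritoneum, and cells were taken from the spleen at day 4. L-cDC2 were the tdTomato+ and M-cDC2 the tdTomato- cells of Il7r-Cre;Rosa26-lsl-tdTomato mice, in which Cre driven by Il7r, a gene active in lymphoid progenitors, marks a cell and its progeny permanently. The other groups were CD45.2+ cells that descended from transferred wild-type progenitors: common lymphoid progenitors (CLPs) gave CLP-cDC2, and common dendritic cell progenitors (CDPs) gave CDP-cDC2, after injection into the marrow of CD45.1+ B6.SJL mice, and the labels do not say whether the recipients' own haematopoietic cells had been removed. The labels give an age of 7 to 8 weeks and 3 libraries for each of the 4 groups, and the stated question was how alike CLP-cDC2 and L-cDC2 are. Whether replicates were separate animals is not said. A p-value therefore covers only the spread among the replicate libraries within groups, which may be technical. The fit pools that spread over all 4 groups, so groups outside a comparison also bear on its p-value. Nor do the labels say whether L-cDC2 and M-cDC2 were sorted from the same mice, and their libraries were tested as unpaired.

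Assigned reads recovered from the FPKM ranged from 26543345 to 73732246 per library, and 12860 to 13892 genes reached 1 FPKM. Of 14 cDC2 markers such as Sirpa and H2-Ab1, all 14 reached 1 FPKM in every library of L-, M- and CDP-cDC2, and 13 did so in CLP-cDC2. That bar cannot tell pure cDC2 from mixed cells. In every library of M-, CLP- and CDP-cDC2, 8 of 10 markers of type 1 conventional dendritic cells (cDC1) reached it. In L-cDC2 10 of 11 NK cell and innate lymphoid cell (ILC) markers did. CDP-cDC2 replicate 3 lay apart on the second principal component of all tested genes (-50.6) and M-cDC2 replicate 3 on the third (-40.5), and results that rest on them are also given without them. Since these are bulk libraries, fewer cells carrying a transcript and less transcript per cell cannot be told apart.

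Upstream sequence was at hand for 6 of the 10 members, from RefSeq on GRCm38.p6. The 250 bases before the start are printed, 5' to 3' along the gene's own strand, for the 4 of these 6 members that differed in CLP-cDC2 below, so that the regulatory sequence can be read beside the values. Capitals mark a match, on either strand, to 1 of 3 motifs searched: the interferon regulatory factor motif (GAAA, any 2 bases, GAAA), the NF-kappaB consensus and the interferon-gamma-activated site TTCNNNGAA. The last of these matched none of the 6.
Lgals9 (chr11:78984925-78985174, minus strand): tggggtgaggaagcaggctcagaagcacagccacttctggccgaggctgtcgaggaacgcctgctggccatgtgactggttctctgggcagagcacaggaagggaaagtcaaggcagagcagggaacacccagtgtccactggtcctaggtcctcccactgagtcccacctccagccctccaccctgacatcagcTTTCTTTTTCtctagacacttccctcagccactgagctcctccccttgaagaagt
Vsir (chr10:60346601-60346850, plus strand): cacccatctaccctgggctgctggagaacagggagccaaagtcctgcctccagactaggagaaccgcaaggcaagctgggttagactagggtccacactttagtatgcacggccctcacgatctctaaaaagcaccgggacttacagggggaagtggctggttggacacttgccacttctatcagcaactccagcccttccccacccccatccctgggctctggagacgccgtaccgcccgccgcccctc
Cd274 (chr19:29367188-29367437, plus strand): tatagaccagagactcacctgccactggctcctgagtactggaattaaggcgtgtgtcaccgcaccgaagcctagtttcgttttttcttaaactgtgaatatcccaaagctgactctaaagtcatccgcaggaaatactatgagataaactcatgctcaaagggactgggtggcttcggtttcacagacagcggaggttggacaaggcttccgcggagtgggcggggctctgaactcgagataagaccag
Pdcd1lg2 (chr19:29410669-29410918, plus strand): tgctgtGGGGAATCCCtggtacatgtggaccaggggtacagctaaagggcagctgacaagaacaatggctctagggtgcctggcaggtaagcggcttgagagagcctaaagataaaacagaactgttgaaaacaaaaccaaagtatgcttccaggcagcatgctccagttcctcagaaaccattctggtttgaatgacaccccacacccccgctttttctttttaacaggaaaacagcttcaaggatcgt
Lgals9, the member that rose in CLP-cDC2, held an interferon regulatory factor match on the opposite strand, 55 to 46 bases before the start, a motif found in 2.98% of 32851 promoter windows of 250 bases. Pdcd1lg2 held an NF-kappaB consensus match 244 to 235 bases before the start, on either strand at the same bases, and that motif occurred in 7.25% of windows. The windows of Vsir and Cd274 held neither, and TTCNNNGAA occurred in 7.02% of windows. Of the other two members with sequence, Icosl had an NF-kappaB consensus match and Cd80 had none. A match is a string of letters, and factor binding was not measured. The deposited gene coordinates given below, whose build the sources used here do not name, differ from GRCm38.p6 and are kept apart from these.

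Among the members of the fixed set, the galectin-9 transcript was the most abundant in all 4 groups. Per length, Lgals9 averaged 82.2 ± 5.85 FPKM in CLP-cDC2, 49.4 ± 0.691 in L-cDC2, 50.6 ± 5.85 in CDP-cDC2 and 45.3 ± 1.37 in M-cDC2 (SD, n = 3 each), and no other member's library overlapped it within a group. Cd40 ranked 2nd in L-cDC2 (33.3 ± 2.3 FPKM) and in M-cDC2 (35.2 ± 3.51), but 5th in CLP-cDC2 (16.8 ± 0.631) and 4th in CDP-cDC2 (30.3 ± 2.95). Its libraries overlapped those of its lower neighbour in L-cDC2 (Cd274), M-cDC2 (Vsir) and CDP-cDC2 (Cd86), and those of its upper neighbour, Cd274, in CLP-cDC2 and CDP-cDC2. Cd274, Vsir and Cd86 filled the other places between ranks 2 and 5 in every group, Pdcd1lg2 and Icosl ranks 6 and 7 in either order, and Cd80, Tnfsf9 and Tnfsf4 the last 3. In L-cDC2 all libraries of Cd86 lay above those of Pdcd1lg2, and in M-cDC2 all of Pdcd1lg2 above those of Icosl. In CDP-cDC2 the libraries of every neighbouring pair from Vsir down to Tnfsf9 overlapped.

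**Figure D1:**
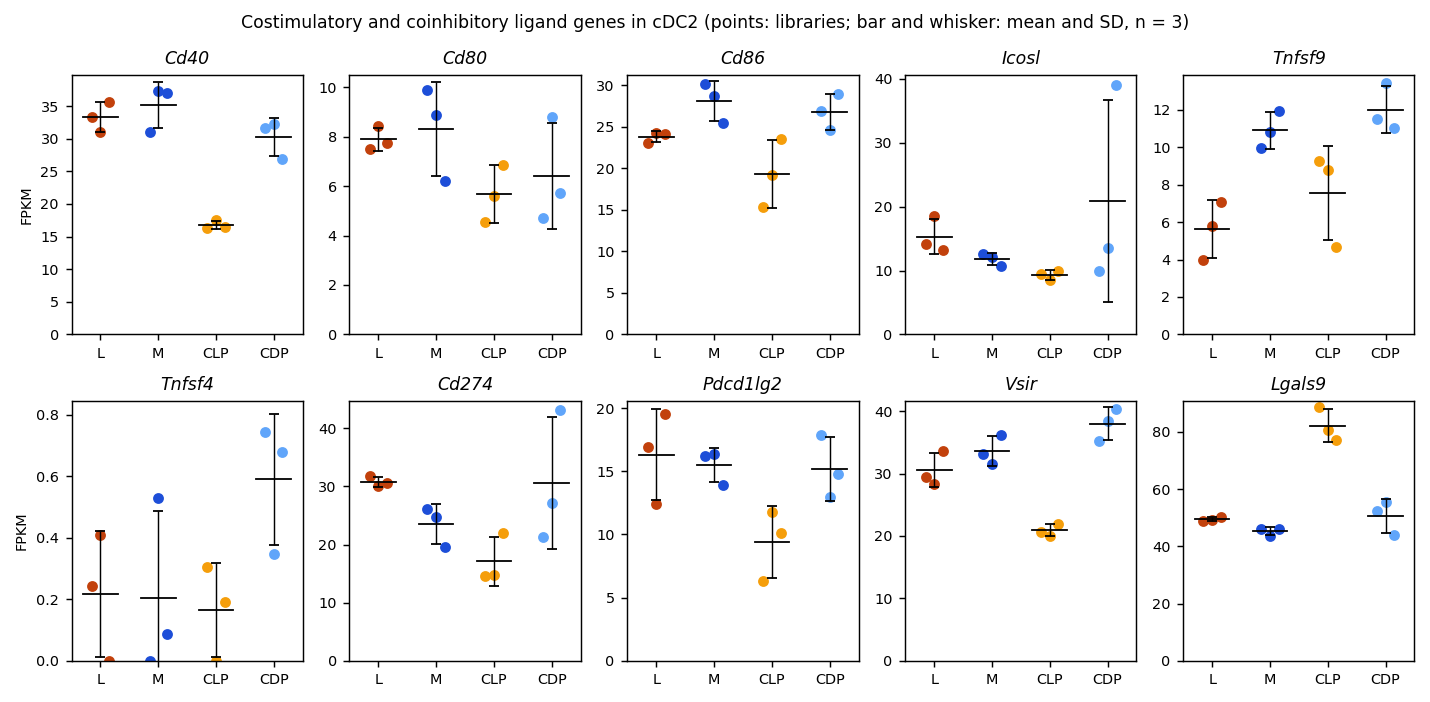
Level in FPKM (vertical axes, linear, from 0) of the 10 ligand genes in each library of L-cDC2 (L), M-cDC2 (M), CLP-cDC2 (CLP) and CDP-cDC2 (CDP); points are libraries, bars and whiskers the mean and SD of 3, and a whisker that would pass below 0 is drawn to the axis. All 3 CLP-cDC2 libraries lie below every other library for Cd40 and Vsir and above every other library for Lgals9, and 1 CDP-cDC2 library stands far above the rest for Icosl.

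The lineage comparison gave different pictures in the reporter mice and in the transfer recipients. Between L-cDC2 and M-cDC2 no member was called (0 of 9) by limma on log2(FPKM + 1) at an adjusted p under 0.05, where 1.73% of the 14538 tested genes were called (1.29% higher and 0.440% lower). Tnfsf9 alone had an unadjusted p under 0.05. The members' median log2 difference was -0.05, beside 0.04 over all genes tested. Libraries did not overlap for 3 members that were higher in L-cDC2, namely Cd274, Icosl and Lgals9 (12.7% of all tested genes), and for 2 that were lower, Cd86 and Tnfsf9 (6.67%; 19.4% in either direction).

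Between CLP-cDC2 and CDP-cDC2, 4 of 9 members were called, with Lgals9 higher and Cd40, Vsir and Cd274 lower in CLP-cDC2. Of all tested genes 13.1% were called, 7.02% higher and 6.12% lower. The members' median log2 difference was -0.67, against -0.01 over all genes. In 6 members every CLP-cDC2 library lay below every CDP-cDC2 library (13.0% of all genes), and in 1, Lgals9, every one lay above (16.7%, and 29.7% in either direction). Between CLP-cDC2 and L-cDC2, 5 of 9 were called, with Lgals9 higher and Cd40, Vsir, Cd274 and Pdcd1lg2 lower, where 10.6% of all genes were called, 4.29% higher and 6.32% lower. Libraries did not overlap for 6 members that were lower and 1 that was higher (17.9% and 17.8% of all genes, 35.8% in all). The median was -0.52 for the members and 0 for all genes. These comparisons share the CLP-cDC2 libraries. Between CDP-cDC2 and M-cDC2 no member was called (0 of 9, with 2.58% of all genes called) and none had an unadjusted p under 0.05. Called genes overall were 1.62% higher and 0.956% lower. The libraries overlapped for all 9, where 24.4% of all genes did not (14.5% higher and 9.94% lower).

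**Figure D2:**
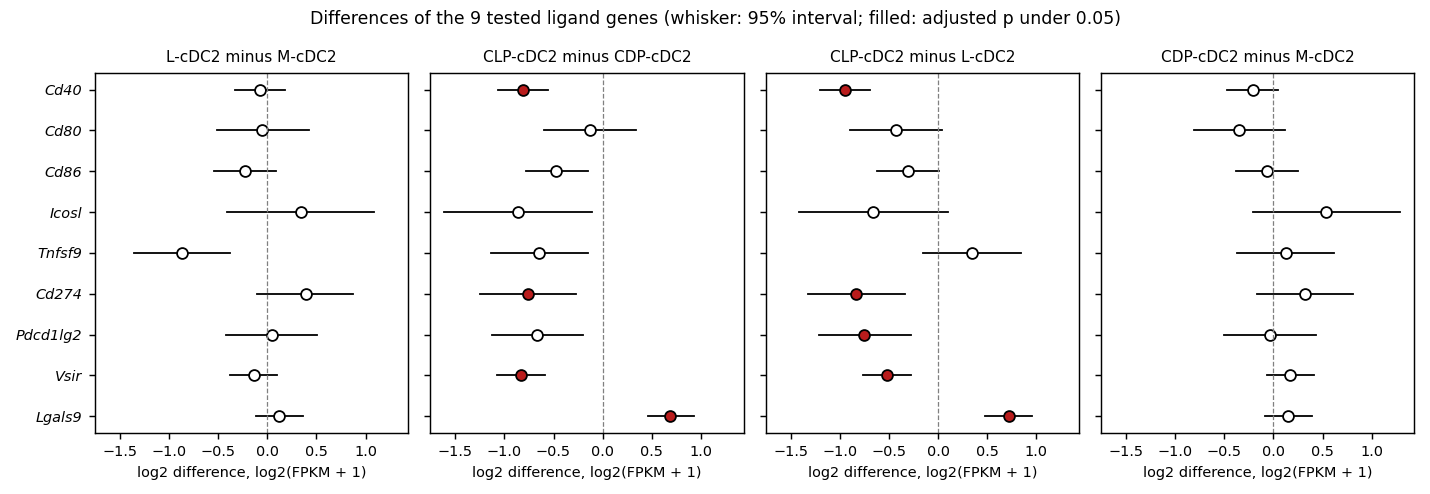
Log2 difference on the log2(FPKM + 1) scale (horizontal axes) of the 9 tested ligand genes, with panels that set L-cDC2 against M-cDC2, then CLP-cDC2 against CDP-cDC2, then CLP-cDC2 against L-cDC2, then CDP-cDC2 against M-cDC2; points are limma estimates, whiskers 95% intervals and filled points adjusted p under 0.05. Filled points appear only in the panels with CLP-cDC2, 4 against CDP-cDC2 and 5 against L-cDC2, and Lgals9 is the filled point on the right of 0 in each.

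Among the costimulatory genes, Cd40 (ENSMUSG00000017652, chromosome 2 from 164897547 to 164914868 as deposited) was set apart by low values in CLP-cDC2. It had 16.3, 17.5 and 16.5 FPKM in CLP-cDC2, against 31.7, 32.3 and 26.9 in CDP-cDC2. It had 33.3, 31.0 and 35.6 FPKM in L-cDC2, against 31.1, 37.3 and 37.0 in M-cDC2. All CLP-cDC2 libraries lay below the other 9, and the L-cDC2 and M-cDC2 libraries overlapped. Cd40 fell in CLP-cDC2 against CDP-cDC2, with a log2 difference of -0.81 and a standard error of 0.12 (limma adjusted p = 0.0012; differences below are given ± SE), a mean level 44.6% lower. Against L-cDC2 it fell by 0.95 ± 0.12 (adjusted p = 0.00032), a mean 49.6% lower. L-cDC2 minus M-cDC2 was -0.07 ± 0.12 (adjusted p = 0.88), with a 95% interval from -0.33 to 0.18. Both calls of Cd40 were kept in 26 of 26 alternative settings.

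Cd86 and Cd80, the paired ligands of Cd28 and Ctla4, passed the test in no comparison with the settings reported. Cd86 had 15.3, 19.2 and 23.5 FPKM in CLP-cDC2, against 26.9, 24.6 and 28.9 in CDP-cDC2. The groups did not overlap, and the log2 difference of -0.47 ± 0.15 had limma adjusted p = 0.052. Of 26 alternatives 5 called it, which were the 5 FPKM minimum, quantile scaling, array weights, protein-coding genes alone and the fit without CLP-cDC2 replicate 3 (-0.61, adjusted p = 0.018), and over all 26 the adjusted p ran up to 0.17. In the reporter mice Cd86 had 23.1, 24.3 and 24.1 FPKM in L-cDC2, against 30.2, 28.7 and 25.4 in M-cDC2. Here too every L-cDC2 library lay below every M-cDC2 library, with a difference of -0.23 ± 0.15 (adjusted p = 0.72). Cd80 was lower throughout, at 4.55 to 9.87 FPKM over the 12 libraries. Its difference was -0.13 ± 0.22 for CLP-cDC2 minus CDP-cDC2 and -0.05 ± 0.22 for L-cDC2 minus M-cDC2, and the libraries overlapped in both. For CLP-cDC2 minus L-cDC2, Cd80 stood at -0.43 ± 0.22 (limma adjusted p = 0.22). There every CLP-cDC2 library lay below every L-cDC2 library, as for 17.9% of all tested genes. Cd86 stood at -0.31 ± 0.15 (adjusted p = 0.2), with overlap.

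The ratio of Cd86 to Cd80, computed library by library from FPKM, was close to even among replicates in CLP-cDC2 and spread in CDP-cDC2. It was 3.36, 3.44 and 3.43 in CLP-cDC2, against 5.74, 2.79 and 5.04 in CDP-cDC2. In the reporter mice it was 3.07, 2.88 and 3.11 in L-cDC2, against 3.06, 3.24 and 4.11 in M-cDC2. The ratios overlapped between groups in both comparisons, and Cd86 had the higher level per length in all 12 libraries.

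Icosl, the ligand of Icos on follicular helper T cells, had 1 library far above the others. It had 9.39, 8.46 and 9.95 FPKM in CLP-cDC2, against 10, 13.6 and 39.0 in CDP-cDC2, the highest being replicate 3, which stood apart on all genes. The groups did not overlap, by a narrow margin, and the log2 difference was -0.86 ± 0.35 (limma adjusted p = 0.12). Without CDP-cDC2 replicate 3 it was -0.31 (adjusted p = 0.29), and without CDP-cDC2 replicate 1, which leaves replicate 3 in, it was -1.24 and called (adjusted p = 0.025), the single call among 26 alternatives. It had 14.1, 18.5 and 13.3 FPKM in L-cDC2, against 12.6, 12.2 and 10.7 in M-cDC2, again without overlap, with a difference of 0.34 ± 0.35 (adjusted p = 0.82). For CLP-cDC2 minus L-cDC2 Icosl stood at -0.66 ± 0.35 (adjusted p = 0.25). Across alternatives this adjusted p ran from 0.014 to 0.58, and 3 of 26 called Icosl, which were the fit of these groups alone and those without CDP-cDC2 replicate 3.

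Tnfsf9, which encodes the ligand of 4-1BB, had the lowest p of the members in the reporter mice. It had 3.99, 5.80 and 7.09 FPKM in L-cDC2, against 9.94, 10.8 and 11.9 in M-cDC2. No library overlapped, and the mean was 48.4% lower in L-cDC2, with a log2 difference of -0.87 ± 0.23 (unadjusted p = 0.0023, limma adjusted p = 0.11). It was called with array weights (adjusted p = 0.0097) and without CLP-cDC2 replicate 3 (0.024) among 26 alternatives, over which the difference ran from -1.03 to -0.59. In the recipients Tnfsf9 had 9.23, 8.75 and 4.66 FPKM in CLP-cDC2, against 11.5, 13.4 and 11 in CDP-cDC2. Again no library overlapped, with a difference of -0.65 ± 0.23 (adjusted p = 0.081). The exons of Tnfsf9 overlap those of Gm11110 on the other strand, and the sources used here do not say whether strand was counted, so reads of both genes cannot be told apart.

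Tnfsf4, the ligand of OX40, was scarce. It had 0.304, 0 and 0.192 FPKM in CLP-cDC2, against 0.743, 0.348 and 0.679 in CDP-cDC2. It had 0.242, 0.409 and 0 FPKM in L-cDC2, against 0, 0.529 and 0.0855 in M-cDC2. A count of 0 allows up to 3 reads, worth 0.0221 to 0.0614 FPKM across the libraries and covering counting error only, and the highest value rested on 50 reads. The CDP-cDC2 libraries lay above the CLP-cDC2 libraries, but with all 12 under 1 FPKM no test was made.

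Of the coinhibitory genes, Lgals9 (ENSMUSG00000001123, chromosome 11 from 78853800 to 78875772 as deposited) was the member that rose in CLP-cDC2. It had 88.6, 80.8 and 77.2 FPKM in CLP-cDC2, against 52.4, 55.4 and 44.1 in CDP-cDC2. It had 49.0, 49.1 and 50.2 FPKM in L-cDC2, against 46.1, 43.7 and 46.1 in M-cDC2. The lowest CLP-cDC2 library exceeded the highest of the other 9. Lgals9 rose by a log2 difference of 0.69 ± 0.11 against CDP-cDC2 (limma adjusted p = 0.0019), a ratio of mean levels of 1.62. Against L-cDC2 it rose by 0.72 ± 0.11 (adjusted p = 0.0013), a ratio of 1.66. Both calls were kept in 26 of 26 alternatives. L-cDC2 minus M-cDC2 was 0.12 ± 0.11 (adjusted p = 0.79), although their libraries did not overlap.

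Vsir (ENSMUSG00000020101, chromosome 10 from 60182630 to 60208463 as deposited) moved the opposite way. It had 20.7, 20.0 and 21.9 FPKM in CLP-cDC2, against 35.2, 38.5 and 40.3 in CDP-cDC2. It had 29.4, 28.4 and 33.6 FPKM in L-cDC2, against 33.1, 31.6 and 36.2 in M-cDC2. As with Cd40, the CLP-cDC2 libraries were the 3 lowest of 12, and L-cDC2 and M-cDC2 overlapped. Vsir fell by 0.83 ± 0.11 on the log2 scale in CLP-cDC2 against CDP-cDC2 (limma adjusted p = 0.00076), a call kept in 26 of 26 alternatives. It fell by 0.52 ± 0.11 against L-cDC2 (adjusted p = 0.011), a call lost only without L-cDC2 replicate 3 (-0.45, adjusted p = 0.058). L-cDC2 minus M-cDC2 was -0.14 ± 0.11 (adjusted p = 0.77).

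Cd274, the PD-L1 gene (ENSMUSG00000016496, chromosome 19 from 29344855 to 29365495 as deposited), was also lower in CLP-cDC2, with less even libraries. It had 14.6, 14.7 and 22.0 FPKM in CLP-cDC2, against 21.3, 27.2 and 43.2 in CDP-cDC2. It had 31.7, 30.1 and 30.5 FPKM in L-cDC2, against 26.1, 24.8 and 19.6 in M-cDC2. The highest CLP-cDC2 library passed the lowest CDP-cDC2 library, whereas L-cDC2 lay above CLP-cDC2 and M-cDC2 without overlap. Cd274 fell by 0.76 ± 0.23 on the log2 scale in CLP-cDC2 against CDP-cDC2 (limma adjusted p = 0.043). That call was lost in 13 of 26 alternatives. Without CDP-cDC2 replicate 3 the difference was -0.49 (adjusted p = 0.13), without CLP-cDC2 replicate 1 or replicate 2 it was -0.67 (0.12 and 0.15), and without CDP-cDC2 replicate 2 it was -0.82 (0.067). Leaving out any L-cDC2 library, or M-cDC2 replicate 1 or 2, kept -0.76 with adjusted p from 0.054 to 0.061.

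Against L-cDC2, Cd274 fell by 0.83 ± 0.23 in CLP-cDC2 (limma adjusted p = 0.035). In 8 of 26 alternatives that call was lost, among them each L-cDC2 library left out (-0.85 to -0.81, adjusted p 0.087 to 0.1), CLP-cDC2 replicate 1 or 2 left out (-0.74, 0.11) and M-cDC2 replicate 2 left out (-0.83, 0.05 after rounding). L-cDC2 minus M-cDC2 was 0.39 ± 0.23 (adjusted p = 0.7). The exons of Cd274 overlap those of Gm36043 on the other strand, whose reads cannot be told apart from its own.

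Pdcd1lg2, the PD-L2 gene (ENSMUSG00000016498, chromosome 19 from 29388319 to 29448561 as deposited), lies beside Cd274. It had 6.32, 11.8 and 10.1 FPKM in CLP-cDC2, against 17.9, 13.0 and 14.8 in CDP-cDC2. It had 16.9, 12.4 and 19.5 FPKM in L-cDC2, against 16.2, 16.4 and 13.9 in M-cDC2. The CLP-cDC2 libraries were the 3 lowest of 12. Pdcd1lg2 fell by 0.75 ± 0.21 on the log2 scale in CLP-cDC2 against L-cDC2 (limma adjusted p = 0.045), a call kept in 12 of 26 alternatives. It was lost without CLP-cDC2 replicate 1 (-0.51, adjusted p = 0.15), CLP-cDC2 replicate 3 (-0.81, 0.069), L-cDC2 replicate 1 (-0.71, 0.12), L-cDC2 replicate 3 (-0.61, 0.15), M-cDC2 replicate 1 (-0.75, 0.06) or M-cDC2 replicate 2 (-0.75, 0.063). The other comparisons of Pdcd1lg2 gave -0.67 ± 0.21 for CLP-cDC2 minus CDP-cDC2 (adjusted p = 0.058) and 0.05 ± 0.21 for L-cDC2 minus M-cDC2 (adjusted p = 0.96).

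The ratio of Cd274 to Pdcd1lg2, the ligands that share Pdcd1, overlapped between groups in the recipients. It ranged from 1.25 to 2.32 in CLP-cDC2 and from 1.19 to 2.92 in CDP-cDC2. In the reporter mice it ranged from 1.56 to 2.43 in L-cDC2 and from 1.41 to 1.61 in M-cDC2, which also overlapped. Cd274 to Cd80, whose products bind each other on one cell, was 4.22, 3.58 and 3.94 in L-cDC2, against 2.64, 2.80 and 3.17 in M-cDC2, with no overlap. It was 3.22, 2.64 and 3.21 in CLP-cDC2, against 4.55, 3.09 and 7.53 in CDP-cDC2, with overlap. The ratios were not tested.

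The difference between the lineage effects, (L-cDC2 minus M-cDC2) minus (CLP-cDC2 minus CDP-cDC2), was itself tested. It was called for Cd40 (0.74 ± 0.17, limma adjusted p = 0.026), Vsir (0.69 ± 0.16, adjusted p = 0.026) and Lgals9 (-0.57 ± 0.15, adjusted p = 0.048), which are 2 higher and 1 lower, where 5.99% of all tested genes were called, 3.61% higher and 2.38% lower. The median over the 9 members was 0.69, and over all genes 0.05. Cd274 stood at 1.15 ± 0.32 (adjusted p = 0.052), and Icosl at 1.2 ± 0.49 (adjusted p = 0.15), or 0.64 without CDP-cDC2 replicate 3 (0.14). Of 25 alternatives, 16 kept the call of Cd40, 18 that of Vsir and 7 that of Lgals9, while 7 called Cd274.

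The Cd40 call was lost with no filter on low values (0.74, adjusted p = 0.055) and with the replicate number as a block (0.74, 0.058), which called Cd274 (adjusted p = 0.023). It was also lost without L-cDC2 replicate 1 (0.74, limma adjusted p = 0.06), 2 (0.79, 0.06) or 3 (0.69, 0.071), M-cDC2 replicate 1 (0.66, 0.057) or 2 (0.78, 0.053), and also without CLP-cDC2 replicate 1 (0.72, 0.056) or CDP-cDC2 replicate 2 (0.69, 0.051). The Vsir call was lost without any single L-cDC2 library (0.62 to 0.74, adjusted p 0.055 to 0.071), M-cDC2 replicates 1 (0.68, 0.054) or 2 (0.65, 0.073), and also in fits that left out CLP-cDC2 replicate 1 (0.69, 0.054) or 2 (0.67, 0.063). The Lgals9 call was lost without any library other than CDP-cDC2 replicate 1 or 2 (-0.61 to -0.47, adjusted p 0.054 to 0.12). The estimates of these 3 members kept their sign in all 25 alternatives.

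Across the 12 libraries the members divided by sign. On log2(FPKM + 1), Pearson's r of Lgals9 was -0.92 with Cd40, -0.86 with Vsir, -0.85 with Cd86 and -0.8 with Pdcd1lg2, and r of Cd40 was 0.83 with Vsir and 0.8 with Pdcd1lg2. The libraries share their groups, and the CLP-cDC2 libraries form a cluster of their own, so these are descriptions. The tested protein-coding genes most like Cd40, of 9688 compared, were Traf1 (r = 0.97), a signalling adaptor of TNF receptors, Nudt17 and Apol7c (0.95 each). For Lgals9 they were Hoxa7 (0.96), Rnaseh2b and Hoxa9 (0.95 each), and for Vsir they were Cd300lb, Cd74, the invariant chain of MHC class II, and Tgfbi (0.96 each). For Cd274 they were Erlin2, Clptm1 and Irak1 (0.95 each), for Pdcd1lg2 Bcl2a1a (0.89), Sirpb1a (0.88) and Il18 (0.87), and for Cd86 Cd300ld, Ear2 (0.92 each) and Hfe (0.9). For Icosl they were Nr4a1 (0.98), an immediate-early nuclear receptor, Anpep and Rab5b (0.97 each), all highest in CDP-cDC2 replicate 3, without which r over 11 libraries was 0.91, 0.92 and 0.91. For Tnfsf9 they were Ripk3 (0.92), Tax1bp3 (0.9) and Idh1 (0.89), and for Cd80 Lmbrd1 (0.9), Mrps30 (0.88) and Mctp1 (0.87).

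**Figure D3:**
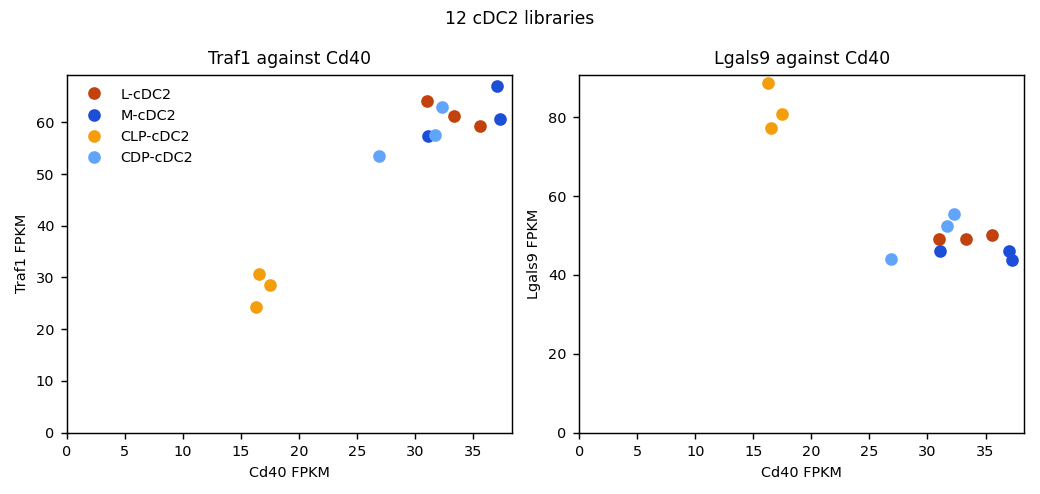
Traf1 (left) and Lgals9 (right) against Cd40, all in FPKM on linear axes from 0, a point for each of the 12 libraries coloured by group. The 3 CLP-cDC2 libraries sit apart at 16.3 to 17.5 FPKM of Cd40, low in Traf1 and high in Lgals9, and the other 9 libraries form a single cloud.

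Genes listed for CD40 and TNF receptor signalling were in part lower in CLP-cDC2, and a link to the level of Cd40 was not tested. Of 19 tested genes of CD40 and TNF receptor signalling, 6 were called lower and 0 higher against CDP-cDC2 (median -0.52, against -0.01 over all genes), and 5 lower and 0 higher against L-cDC2 (median -0.47, against 0). Over all tested genes 6.12% and 6.32% were called lower in these comparisons. The count against CDP-cDC2 was 2 without CLP-cDC2 replicate 2, and 3 on leaving out another CLP-cDC2 library, either of L-cDC2 replicates 1 and 3, or either of M-cDC2 replicates 1 and 2. It was 4 without L-cDC2 replicate 2 or CDP-cDC2 replicate 3 against 6 with all libraries. The count against L-cDC2 was 3 without CLP-cDC2 replicate 1 or any L-cDC2 library. Traf1 averaged 27.8 ± 3.21 FPKM in CLP-cDC2 and 61.6 ± 2.5 in L-cDC2 (SD, n = 3 each), a difference of -1.13 ± 0.12 (limma adjusted p = 7.2e-05). Relb, the partner of Nfkb2 in non-canonical NF-kappaB, averaged 53.5 ± 2.57 in CLP-cDC2 and 119 ± 4.51 in L-cDC2 (-1.14, adjusted p = 7.2e-05). Nfkb2 averaged 30.6 ± 6.17 in CLP-cDC2 and 57.7 ± 7.39 in L-cDC2 (-0.9, adjusted p = 0.0072), and the survival gene Bcl2l1 1.89 ± 0.362 and 3.42 ± 0.471 in the same order (-0.62, adjusted p = 0.031). The call of Bcl2l1 was lost without any single L-cDC2 library or CLP-cDC2 replicate 1 or 3 (adjusted p up to 0.11). The 5th gene called against L-cDC2 was Bcl2a1d (-0.48, adjusted p = 0.04), named after its values were seen. Between L-cDC2 and M-cDC2 none of the 19 was called.

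Most tested genes that mark migratory, matured dendritic cells fell in CLP-cDC2. Of 14 tested, 10 were called lower in CLP-cDC2 than in CDP-cDC2 (median -1.13), 8 lower than in L-cDC2 (median -0.8) and none in either direction between L-cDC2 and M-cDC2 (median -0.01). Over all tested genes 6.12% were lower in the first comparison and 6.32% in the second, and 1.73% were called in the third. The 8 became 6 without any single CLP-cDC2 or L-cDC2 library, or without M-cDC2 replicate 1 or 2. A difference between the lineage effects was called for 9 of 14, and for 5.99% of all tested genes. Cacnb3, a calcium channel subunit gene, averaged 0.5 ± 0.194 FPKM in CLP-cDC2 and 4.83 ± 0.816 in CDP-cDC2 (-1.96 ± 0.18, limma adjusted p = 5.9e-05). The chemokine gene Ccl5 averaged 74.3 ± 32.8 in CLP-cDC2 and 459 ± 22.6 in L-cDC2 (-2.7 ± 0.25, adjusted p = 3.2e-05), and Nudt17 0.00701 ± 0.0121 in CLP-cDC2 and 3.11 ± 1.38 in L-cDC2. Samsn1, Il15ra, Cd83 and Birc2, named after their values were seen, were called in neither comparison, with Samsn1 at 0.01 against CDP-cDC2 and 0.04 against L-cDC2. Relb, Cd83 and Birc2 also stand in the CD40 and TNF receptor signalling list. Ccr7, the lymph node homing receptor, chosen after its values were seen, averaged 14.9 ± 2.62 in CLP-cDC2 and 36.6 ± 1.26 in CDP-cDC2 (-1.25 ± 0.15, adjusted p = 0.00037), and 29.1 ± 4.19 in L-cDC2 and 28.8 ± 3.11 in M-cDC2.

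Further ligand families also held genes called lower in CLP-cDC2. Over all tested genes 6.12% were called lower against CDP-cDC2 and 6.32% against L-cDC2. Of 14 tested of 22 other B7-related and accessory ligands, 2 were lower in CLP-cDC2 against CDP-cDC2 (median -0.12; 0 without CLP-cDC2 replicate 1, and 1 without its replicate 3 or either of CDP-cDC2 replicates 2 and 3) and 4 against L-cDC2 (median -0.4; 1 without CLP-cDC2 replicate 1, and 2 without any single L-cDC2 library). Icam1, the adhesion ligand of LFA-1, averaged 41.4 ± 4.73 FPKM in CLP-cDC2 and 74.9 ± 2.23 in L-cDC2 (-0.84 ± 0.11, limma adjusted p = 0.00041). It averaged 55.1 ± 3.13 in CDP-cDC2, above CLP-cDC2 (CLP-cDC2 minus CDP-cDC2 -0.41 ± 0.11, adjusted p = 0.03). CDP-cDC2 was in turn below M-cDC2 (77.6 ± 5.5) for Icam1, by 0.48 ± 0.11 (adjusted p = 0.04), a call lost without CDP-cDC2 replicate 3. Part of the fall was thus shared by both transfer groups. Ly9 and Slamf7, both of the SLAM family, fell in CLP-cDC2 against L-cDC2, with log2 differences of -0.54 and -0.74 (adjusted p = 0.017 and 0.025). Ly9 averaged 44.1 FPKM in L-cDC2, 33.1 in M-cDC2, 30 in CLP-cDC2 and 23.6 in CDP-cDC2, so low values were not particular to CLP-cDC2. For CLP-cDC2 minus CDP-cDC2, Ly9 stood at 0.35 (limma adjusted p = 0.088) and Slamf7 at -0.38 (0.19). For CDP-cDC2 minus M-cDC2, Ly9 stood at -0.48 (0.061). The call of Ly9 was lost on leaving out either of L-cDC2 replicates 2 and 3 or of CLP-cDC2 replicates 1 and 2 (adjusted p up to 0.079), and that of Slamf7 on leaving out either of L-cDC2 replicates 1 and 2 or CLP-cDC2 replicate 1 (up to 0.11). Havcr2, the galectin-9 receptor TIM-3, which dendritic cells also carry, averaged 41.9 ± 12.3 in CLP-cDC2 and 75.0 ± 5.45 in L-cDC2 (-0.87 ± 0.22, adjusted p = 0.025), a call lost without any single L-cDC2 library or CLP-cDC2 replicate 1 (up to 0.11). Havcr2 fell while Lgals9 rose, and it was the single called gene in either CLP-cDC2 comparison among 7 tested receptors of the ligands on T cells.

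Of 15 other TNF superfamily ligands 6 were tested, of which 2 were lower in CLP-cDC2 against CDP-cDC2 (median -0.6) and 4 against L-cDC2 (median -0.83). The shares of all tested genes called lower were 6.12% and 6.32%. The 2 became 0 without CDP-cDC2 replicate 2 and 1 without any single CLP-cDC2 library or another CDP-cDC2 library, and the 4 became 2 without CLP-cDC2 replicate 3 or L-cDC2 replicate 1 or 3. Ltb, lymphotoxin beta, averaged 391 ± 34.6 FPKM in CLP-cDC2 and 646 ± 3.9 in L-cDC2 (-0.73 ± 0.14, limma adjusted p = 0.0068). Its mean in CDP-cDC2 was 413 ± 92.5, near that in CLP-cDC2 (-0.06 ± 0.14, adjusted p = 0.82), so a low value was not particular to CLP-cDC2. In M-cDC2 Ltb averaged 513 ± 37.7 (CDP-cDC2 minus M-cDC2 -0.33 ± 0.14, adjusted p = 0.21). Tnf averaged 8.89 ± 2 in CLP-cDC2 and 17.6 ± 1.56 in L-cDC2 (-0.93, adjusted p = 0.0092), and Fasl, best known from cytotoxic lymphocytes, 0.129 ± 0.193 in CLP-cDC2 and 1.86 ± 1.13 in L-cDC2. The call of Fasl was lost on leaving out replicate 1 or 3 of either group (adjusted p up to 0.1). Lta, named after its values were seen, was the remaining gene called against L-cDC2 (-1.02, adjusted p = 0.024). Tnfsf14 (LIGHT) averaged 4.32 ± 0.831 in CLP-cDC2 and 8.88 ± 1.64 in CDP-cDC2 (-0.89, adjusted p = 0.023), a call lost on leaving out either of CLP-cDC2 replicates 1 and 3 or of CDP-cDC2 replicates 1 and 2 (up to 0.095).

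Interferon-gamma is a known inducer of Cd274. Of 11 tested genes of that route, including Jak, Stat and Irf1 genes, none was called in CLP-cDC2 against L-cDC2 (median -0.17, with 10.6% of all genes called). Against CDP-cDC2, 1 was lower in CLP-cDC2 (median -0.41, with 6.12% of all genes lower). That gene, the receptor chain Ifngr2, averaged 45.1 ± 3.23 FPKM in CLP-cDC2 and 65.6 ± 6.2 in CDP-cDC2 (-0.53 ± 0.1, limma adjusted p = 0.0063). Jak2 rose in CDP-cDC2 (40.2 ± 12.8) against M-cDC2 (18.7 ± 4.68), by 1.05 ± 0.23 (adjusted p = 0.037), a call kept in 14 of 26 alternatives and lost without any single L-cDC2 or M-cDC2 library or CDP-cDC2 replicate 1 or 3.

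**Figure D4:**
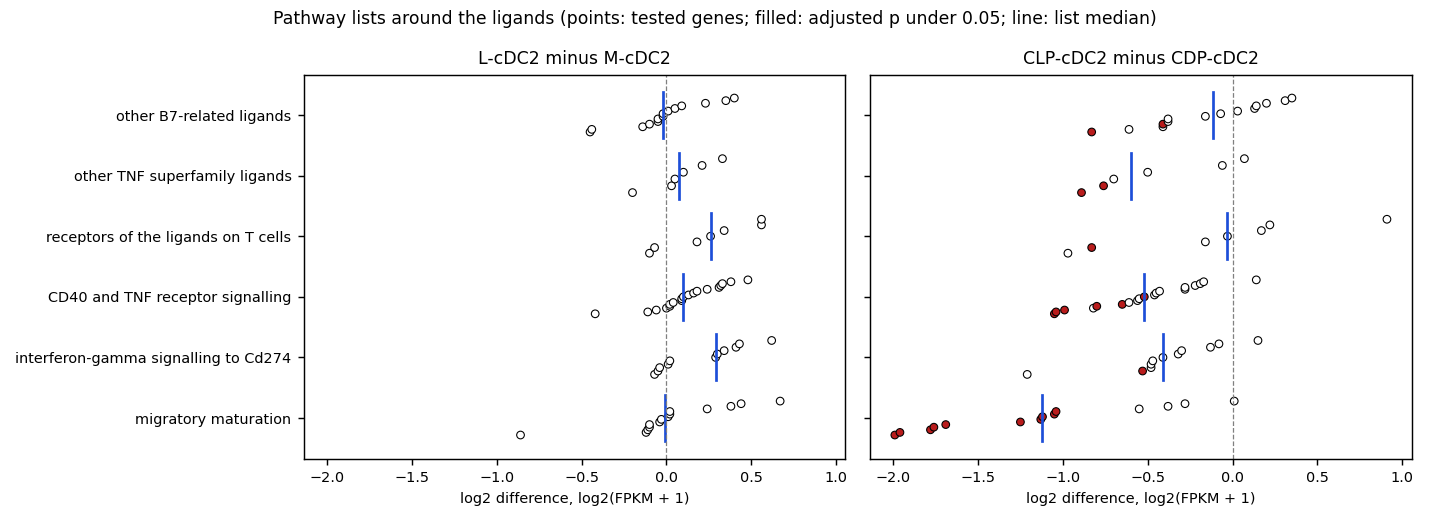
Log2 difference on the log2(FPKM + 1) scale (horizontal axes) of each tested gene of 6 lists around the ligands, for L-cDC2 minus M-cDC2 (left) and CLP-cDC2 minus CDP-cDC2 (right); filled points have adjusted p under 0.05 and vertical lines are list medians. No point is filled on the left, and on the right the filled points, all left of 0, include 10 of 14 migratory maturation genes and 6 of 19 CD40 and TNF receptor signalling genes.

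Markers of other cell types moved with these groups. Over all tested genes 7.02% were higher and 6.12% lower in CLP-cDC2 against CDP-cDC2. Against L-cDC2 4.29% were higher and 6.32% lower. The summed FPKM of 10 cDC1 markers was 231 to 291 in CLP-cDC2, against 181 to 223 in CDP-cDC2 and 162 to 182 in L-cDC2, and 4 and 5 of 9 tested were higher in CLP-cDC2. The cDC1 sum in M-cDC2 was 265 to 287, so a high sum was not particular to CLP-cDC2. The defining markers Xcr1 (3.82 FPKM) and Clec9a (3.7) were low in CLP-cDC2 but not at 0, and averaged 6.29 and 3.28 in M-cDC2. The sum of 10 plasmacytoid markers was 160 to 302 in CLP-cDC2, 85.7 to 143 in CDP-cDC2 and 136 to 147 in L-cDC2, with 2 of 7 tested higher in either comparison and 1 lower against L-cDC2, and Siglech averaged 5.13 FPKM in CLP-cDC2. The sum of the 14 cDC2 markers was 7650 to 9290 in CLP-cDC2, against 11600 to 12500 in CDP-cDC2 and 8730 to 9310 in L-cDC2, with 9 and 7 of 14 lower in CLP-cDC2. The sum of 12 macrophage and monocyte markers was 9.99 to 96.4 in CLP-cDC2, 45.4 to 101 in CDP-cDC2 and 24.2 to 33.5 in L-cDC2, with 2 of 7 lower against CDP-cDC2. Their part in the ligand differences was not tested.

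Lymphocyte markers were higher in L-cDC2. The 12 B cell markers summed to 197 to 218 FPKM in L-cDC2, against 79.2 to 82.6 in M-cDC2 and 96.7 to 111 in CLP-cDC2, and the 11 NK cell and ILC markers to 337 to 428 in L-cDC2, 91.5 to 137 in M-cDC2 and 161 to 216 in CLP-cDC2. The 10 T cell markers summed to 35.8 to 45.5 in L-cDC2, 7.44 to 9.59 in M-cDC2 and 14.7 to 23.8 in CLP-cDC2. Among them Cd3e was near 0 in every group, averaging 0.0659 FPKM in L-cDC2, 0.0322 in CLP-cDC2, 0.0194 in CDP-cDC2 and 0 in M-cDC2. The 8 plasma cell markers summed to 97.4 to 110 in L-cDC2, 58.4 to 63.9 in M-cDC2 and 49.3 to 68.1 in CLP-cDC2. Of the tested genes of these 4 lists 5 of 8, 7 of 10, 4 of 6 and 4 of 5 were higher in L-cDC2 than in M-cDC2 (1.29% of all tested genes). In the same lists 4 of 8, 8 of 10, 4 of 6 and 2 of 5 were lower in CLP-cDC2 than in L-cDC2 (6.32% of all tested genes), and 1 NK cell and ILC gene was higher. Against CDP-cDC2, 5 of 8, 1 of 10, 2 of 6 and 0 of 5 were higher in CLP-cDC2 (7.02% of all tested genes). There 1 NK cell and ILC gene was lower. These values stand beside the results of CLP-cDC2 against L-cDC2, Fasl and Ltb included, and against CDP-cDC2. Their part in those results was not tested.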

How the data were processed

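RNA from 12 mouse splenic cDC2 samples, 3 per group, had been made into SMART-Seq HT and Nextera XT libraries, per the labels' protocols. The authors deposited 1 table of FPKM for 55322 genes. Per the submitters' processing notes the tools were DESeq2 1.20.0, featureCounts 2.0.1, STAR 2.7.9a, cutadapt 3.7, Trimmomatic 0.39 and Trim Galore 0.6.7 and the builds GRCm38 and GRCh38, with no role or order given. FPKM times gene length in kilobases summed to 1000000 in each library, and the commonest of these products above 0 in a library was taken as 1 read, which gave the assigned reads. On that scale 100% of values above 0 lay on multiples of 0.01 read (within 0.02 of such a step, with a tolerance that widened in proportion for the highest genes, where it tests little), and 45.2 to 53.6% of genes above 0 had whole reads (within 0.02 read). No pair of replicates shared more than 2.66% of recovered read numbers, so no library was taken as deposited in duplicate.

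Genes with at least 1 FPKM in at least 3 libraries (14538, of which 10113 protein-coding) were fitted as log2(FPKM + 1), a scale that understates changes of low genes. limma 3.58.1 (R 4.3.3, version 1.17.8 of data.table) used 4 group means, 8 residual degrees of freedom and eBayes with trend. The p-values are two-sided and Benjamini-Hochberg adjusted over all tested genes, called under 0.05, for 5 comparisons. A floor of 3 reads covers counting error only. Alternatives were pseudocounts of 0.1 and 5, no filter or 5 FPKM, other scalings, 2 groups alone, array weights, no trend, a replicate block, protein-coding genes alone, voom on recovered reads, CDP-cDC2 replicate 3 and M-cDC2 replicate 3 left out together, and each library left out.

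The members and gene lists were chosen with earlier results of these data known. The text names all 10 members, up to 4 called genes per list (smallest adjusted p first) and, per tested member, the 3 protein-coding genes with the highest Pearson r. Genes named outside this rule, single cell type markers with values (Xcr1, Clec9a, Siglech, Cd3e, Ly6d and Irf8) included, were chosen after their values were seen. Promoter sequence came from RefSeq (GRCm38.p6).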

Additional observations from a re-analysis of the deposited data

Results flagged for a closer look

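For 3 ligand genes the lineage effect differed between the reporter mice and the transfer recipients by the test of the difference itself, (L-cDC2 minus M-cDC2) minus (CLP-cDC2 minus CDP-cDC2). Cd40 differed by 0.74 on the log2 scale (limma adjusted p = 0.026), being -0.07 in the reporter mice and -0.81 in the recipients. Vsir differed by 0.69 (adjusted p = 0.026), being -0.14 in the reporter mice and -0.83 in the recipients. Lgals9 differed by -0.57 (adjusted p = 0.048), being 0.12 in the reporter mice and 0.69 in the recipients. Of 25 alternative settings, 16 kept the call of Cd40, 18 that of Vsir and only 7 that of Lgals9. In all 3 genes the CLP-cDC2 libraries lay outside the range of the other 9, and reporter and recipient mice also differ in strain, labelling and handling, which cannot be told apart from the progenitor.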

How the results depend on the processing

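In CLP-cDC2, the calls of Cd40 and Lgals9 against CDP-cDC2 and L-cDC2, and of Vsir against CDP-cDC2, were kept under all 26 alternatives; other calls changed as follows, and the cause was not tested. The fit of 2 groups alone gives no value for the difference between lineage effects, which has 25. For L-cDC2 minus M-cDC2, 188 genes were higher and 64 lower. Higher counts were 84 at 5 FPKM, 110 among protein-coding genes and 538 with array weights. Lower counts were 35 with no filter and 300 with array weights, where 1 member was lower. With 1 library left out they ran from 78 to 209 higher and from 18 to 80 lower, and from 0 to 1 member lower (Tnfsf9, without CLP-cDC2 replicate 3) and 0 to 0 higher. For CLP-cDC2 minus CDP-cDC2, 1021 were higher and 889 lower, against 576 and 491 with no filter and 368 and 430 with 2 groups alone. Leaving out 1 library gave 477 to 1073 higher and 501 to 907 lower, lowest without CLP-cDC2 replicate 2. Members lower were 3, but 5 at 5 FPKM and among protein-coding genes, and 2 to 4 with 1 library left out.

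For the difference, 525 genes were higher and 346 lower, against 175 and 80 with no filter, 1082 and 962 with array weights and 283 and 177 without replicate 3 of CDP-cDC2 and of M-cDC2; 204 were lower with no trend. Leaving out 1 library gave 131 to 695 higher and 59 to 545 lower, lowest without L-cDC2 replicate 2. Members higher were 2, but 1 with no filter and 0 to 4 with 1 library left out. Members lower were 1, but 0 with a pseudocount of 0.1, no filter, quantile scaling, rescaling without other-cell genes, no trend, voom or without those replicates 3, and 0 to 1 with 1 library left out. For CLP-cDC2 minus L-cDC2, 623 were higher and 919 lower. Higher counts were 293 with no filter, 1127 with array weights and 1201 without those replicates 3, where 1473 were lower. Leaving out 1 library gave 133 to 1005 higher and 370 to 1340 lower, lowest without L-cDC2 replicate 2. Members lower were 4, but 2 with no filter and 1 to 5 with 1 library left out (1 without L-cDC2 replicate 3). For CDP-cDC2 minus M-cDC2, 236 were higher and 139 lower, against 40 and 63 with no filter, 26 and 46 with 2 groups alone, 1194 and 828 with array weights and 37 and 62 without those replicates 3. Higher counts were 134 with quantile scaling, 461 among protein-coding genes and 477 with voom. Leaving out 1 library gave 26 to 415 higher and 48 to 171 lower, lowest without M-cDC2 replicate 2. With array weights 1 member, Lgals9, was higher (adjusted p = 0.03, limma). Leaving out 1 library gave 0 to 0 members higher or lower in that comparison.

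Signs turned for 4 members, none of them called in that comparison. For L-cDC2 minus M-cDC2, Cd80 (-0.05) was 0.08 and 0.01 without M-cDC2 replicates 1 and 2, and Pdcd1lg2 (0.05) was -0.01 with quantile and with median-ratio scaling, -0.09 without L-cDC2 replicate 3 and -0.02 without M-cDC2 replicate 3, alone or with CDP-cDC2 replicate 3, and ran from -0.09 to 0.22 with 1 library left out. For CLP-cDC2 minus CDP-cDC2, Cd80 (-0.13) was 0.09 without CDP-cDC2 replicate 2 and -0.3 without replicate 1. In the difference, Cd80 (0.08) was -0.09 with quantile scaling and without M-cDC2 replicate 3, -0.04 without CLP-cDC2 replicate 1 or both replicates 3, and from -0.14 to 0.25 without CDP-cDC2 replicate 2 or 1. For CDP-cDC2 minus M-cDC2, Cd274 (0.32) was -0.08 and Icosl (0.54) -0.07 without both replicates 3, Icosl was -0.01 and 0.92 without CDP-cDC2 replicate 3 or 1, and Pdcd1lg2 (-0.03) was 0.01 and 0.07 without replicate 2 of M-cDC2 or of CDP-cDC2 and -0.15 without CDP-cDC2 replicate 1. With quantile scaling 64.4% of calls in L-cDC2 minus M-cDC2 were higher (74.6% as reported), and 50.4% in CDP-cDC2 minus M-cDC2 (62.9%). The differences of low list genes depend on the pseudocount, as with Nudt17 in CLP-cDC2 minus L-cDC2 (-4.82 at 0.1 and -0.68 at 5).

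Replicate numbers are shared between groups. For L-cDC2 and M-cDC2, r of the deviations from the group means ran from -0.22 to 0.13 for the same number and from -0.19 to 0.23 for different numbers. For CLP-cDC2 and CDP-cDC2 it was -0.03, 0.28 and 0.09 for the same number, and -0.29 to 0.22 for different numbers. With 3 libraries per group these values cannot show whether libraries were paired. With the replicate number as a block, 172 genes and 0 members were lower in the difference, where the calls of Cd40 and Lgals9 were lost and Cd274 was called, 2 members were lower in CLP-cDC2 minus L-cDC2 (Cd40 and Vsir), and 94 genes were higher and 92 lower in CDP-cDC2 minus M-cDC2. Tnfsf4, under 1 FPKM throughout, was left out by the filter on low values.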

Other observations

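Ly6d and Irf8 were named after their values were seen. Ly6d, a marker of lymphoid progenitors that stands in the plasmacytoid list, averaged 43.0 FPKM in CLP-cDC2 and 2.3 in CDP-cDC2, and 40.1 in L-cDC2 and 0.874 in M-cDC2. It was high in both groups of lymphoid origin, unlike Cd40, Vsir and Lgals9, whose values in L-cDC2 lay near those in M-cDC2. The level of Irf8, a cDC1 factor, averaged 56.9 FPKM in CLP-cDC2 and 25.5 in CDP-cDC2, and 29.8 in L-cDC2 and 58.3 in M-cDC2, opposite orders in the transfer recipients and the reporter mice. The 10 cDC1 markers likewise were higher in CLP-cDC2 for 4 of 9 tested against CDP-cDC2 and lower in L-cDC2 for 5 of 9 against M-cDC2. Over all tested genes these shares were 7.02% and 0.440%.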
